A study of Mus musculus with 42 samples.

Results

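Across the livers of this study, 7 genes of hepatic glucose output were followed: the enzymes Pck1 (cytosolic phosphoenolpyruvate carboxykinase, spotted under the name PEPCK) and G6Pase (the catalytic subunit of glucose-6-phosphatase, official symbol G6pc), and the regulators Ppargc1a, Foxo1, Sirt1, Crem and Creb1. They were chosen by name or synonym among the mouse probes of a custom 2-colour cDNA array for sterol and energy metabolism, and they are 7 of the 277 mouse genes on it, carried by 9 of 284 probes. All mice were C57BL/6 females fed ad libitum, given 1 intraperitoneal injection in corn oil and killed 24 h later, and RNA came from the left lateral lobe of the liver of single animals. TCPOBOP, which activates CAR (the constitutive androstane receptor) in mice, was given at 3 mg/kg, and PCN, which activates the mouse pregnane X receptor, at 40 mg/kg. The groups were TCPOBOP (n = 6, 18 weeks old), PCN (n = 6, 16 weeks) and corn oil vehicle (n = 5 arrays, 19 weeks) after 1 week on a diet with 1% cholesterol, and TCPOBOP (n = 6, 19 weeks) and vehicle (n = 6, 19 weeks) on standard diet. A second set on standard diet, PCN (n = 6, 18 to 19 weeks) and vehicle (n = 5 arrays, 19 weeks), was hybridized against another reference pool (pool 3, the first being pool 1) and is kept apart, since levels cannot be set across pools. Both groups with 5 arrays had 6 mice in the labels: no scanner values were used for vehicle replicate 2 on the cholesterol diet, and in the second set vehicle replicates 1 and 3 had the same scanner values, which were counted once as replicate 3. Age differed with treatment among the mice on the cholesterol diet, so that age and treatment cannot be told apart there. The same holds for age and diet among TCPOBOP mice (18 weeks on the cholesterol and 19 on standard diet). It thus also enters the difference of the TCPOBOP responses between diets. In the second set, PCN mice were 18 to 19 and vehicle mice 19 weeks old, so age may differ there too.

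The value reported for each mouse is a log2 ratio of its liver RNA (Cy3) to a reference made of a mix of samples (Cy5), so 0 means the level of that mix and levels of different genes cannot be compared. A gene was called changed at an adjusted p under 0.05 from limma over all 277 genes, and differences are log2 differences with their standard error (SE). A spot counted as above background where its mean intensity passed the local background median by more than 2 SD. Across the 40 arrays used, 62.0% to 79.6% of probes lay above background on the first reference pool and 52.5% to 69.7% on the other, where the median signal was also lower, at 23.6 to 137.27 against 157.68 to 297.11. The treatment labels were checked on drug metabolism genes: Cyp2b10, the usual marker of CAR activation, averaged 1.43 after TCPOBOP and -1.55 after vehicle on standard diet, and Cyp3a11, the usual marker of the pregnane X receptor, averaged 0.42 after PCN and -0.57 after vehicle on standard diet. Cyp3a11 was also higher after TCPOBOP, at 0.29 against -0.75 after vehicle on standard diet and 0.23 against -1.16 on the cholesterol diet, so it did not mark PCN alone. On the cholesterol diet Cyp3a11 averaged -0.24 after PCN, and its range of -0.65 to -0.02 overlapped that of vehicle (-2.15 to -0.45). The 8 hepatocyte markers on the array were above background on 37 to 40 of 40 arrays. Of 3 adipocyte markers, Lep was above background on 0 arrays, Retn on 5 and Adipoq on 32, and no marker of macrophages, red blood cells, stellate, endothelial or bile duct cells was on the array. The arrays of TCPOBOP mice ran against the others over all probes, with 140 of 406 pairs on the first pool below an r of -0.3, all 140 between a TCPOBOP array and another, and the lowest at -0.67; the labels state the dyes, all in 1 orientation.

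The liver makes new glucose during fasting from lactate, glycerol and amino acids. Pck1 converts oxaloacetate to phosphoenolpyruvate near the start of that route, and glucose-6-phosphatase releases free glucose at its end. Glucagon raises both genes through cAMP and the transcription factor Creb1, whose relative Crem yields activating and repressing forms, and through the coactivator Ppargc1a; Foxo1 drives both genes until insulin signalling moves it out of the nucleus, and the deacetylase Sirt1 acts on Ppargc1a and Foxo1.

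The 250 bases upstream of the annotated start of both enzyme genes are shown because these promoters are where the regulators above are known to act. They are taken from RefSeq (GRCm38.p6), Pck1 at chr2:173152823-173153072 and G6pc at chr11:101367466-101367715, both on the plus strand, and capitals mark the core of the cAMP response element (TGACG, here read on the minus strand as CGTCA).
Pck1: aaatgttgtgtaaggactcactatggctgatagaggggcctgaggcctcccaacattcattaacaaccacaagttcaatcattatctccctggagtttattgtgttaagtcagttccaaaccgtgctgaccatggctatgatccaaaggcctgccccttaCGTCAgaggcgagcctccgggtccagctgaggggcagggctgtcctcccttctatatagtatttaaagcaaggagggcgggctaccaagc
G6pc: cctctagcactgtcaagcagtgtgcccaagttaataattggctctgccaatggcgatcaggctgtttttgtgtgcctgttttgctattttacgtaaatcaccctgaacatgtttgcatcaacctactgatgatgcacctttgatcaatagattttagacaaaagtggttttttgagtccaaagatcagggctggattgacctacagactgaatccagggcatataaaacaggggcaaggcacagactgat
The Pck1 window held 1 such core, 90 to 86 bases before the start, and the G6pc window held none. Among the other regulators, the core stood 49 to 45 bases before the start of Ppargc1a (minus strand) and 39 to 35 bases before that of Sirt1 (plus strand), and it was not in the windows of Foxo1 and Creb1. Neither the full element TGACGTCA nor the Foxo core TGTTTAC, searched on both strands, was in any of the 6 windows. The window of Crem was not searched. Of 32851 windows of the same length from 27025 genes, 17.8% held the short core, 1.55% the full element and 3.17% the Foxo core. The full element contains the short core, and a match or its absence describes these letters only.

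G6Pase moved most of the members, and it fell in 3 of the comparisons. It was lower after TCPOBOP than after vehicle on the cholesterol diet, lower after TCPOBOP than after PCN on that diet, and lower after PCN than after vehicle on standard diet. It was measured above background on every array. In bulk liver, fewer cells of a type and less RNA per cell cannot be told apart.

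In cholesterol-fed mice, G6Pase after TCPOBOP had log2 ratios with a lowest value of -1.31, a median of -0.47 and a highest of 0.12, against 0.12, 0.47, 0.81, 0.85 and 1.21 in the 5 vehicle mice. The groups met only at their edges, with the highest TCPOBOP mouse and the lowest vehicle mouse both near 0.12. The mean was -0.55 ± 0.50 after TCPOBOP (SD, n = 6) and 0.69 ± 0.41 after vehicle (SD, n = 5), a log2 difference of -1.24 (SE 0.31, 95% interval -1.87 to -0.60, adjusted p = 0.00309 from limma), or 2.36-fold lower, and 6 of 6 TCPOBOP mice lay below the vehicle mean. In the same comparison 37.5% of the 277 genes changed and 14.4% of the 277 fell, and 2 of the 6 measurable members were called, both lower. The arrays fall into sets by the unit in which the scanner wrote spot positions, and the difference was -1.26 in the millimetre set (adjusted p = 0.0169 from limma). In the smaller micrometre set it was -0.91, from 2 TCPOBOP arrays against 1 vehicle array.

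PCN on the same diet left G6Pase nearer the vehicle level. The 6 PCN mice ran over a lowest value of -0.10, a median of 0.42 and a highest of 1.11, with a mean of 0.44 ± 0.44 (SD, n = 6), which overlapped the vehicle mice widely. The log2 difference of PCN from vehicle was -0.25 (SE 0.26, 95% interval -0.80 to 0.30, adjusted p = 0.759 from limma). In that comparison 1.08% of all genes but 0 members were called by limma. TCPOBOP and PCN, given at different doses, differed from each other by -0.99 (SE 0.25, adjusted p = 0.00629 from limma) with 6 of 6 TCPOBOP mice below the PCN mean. In that comparison 27.4% of genes were called, 11.9% lower in TCPOBOP mice, and G6Pase was the only member called.

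**Figure D1:**
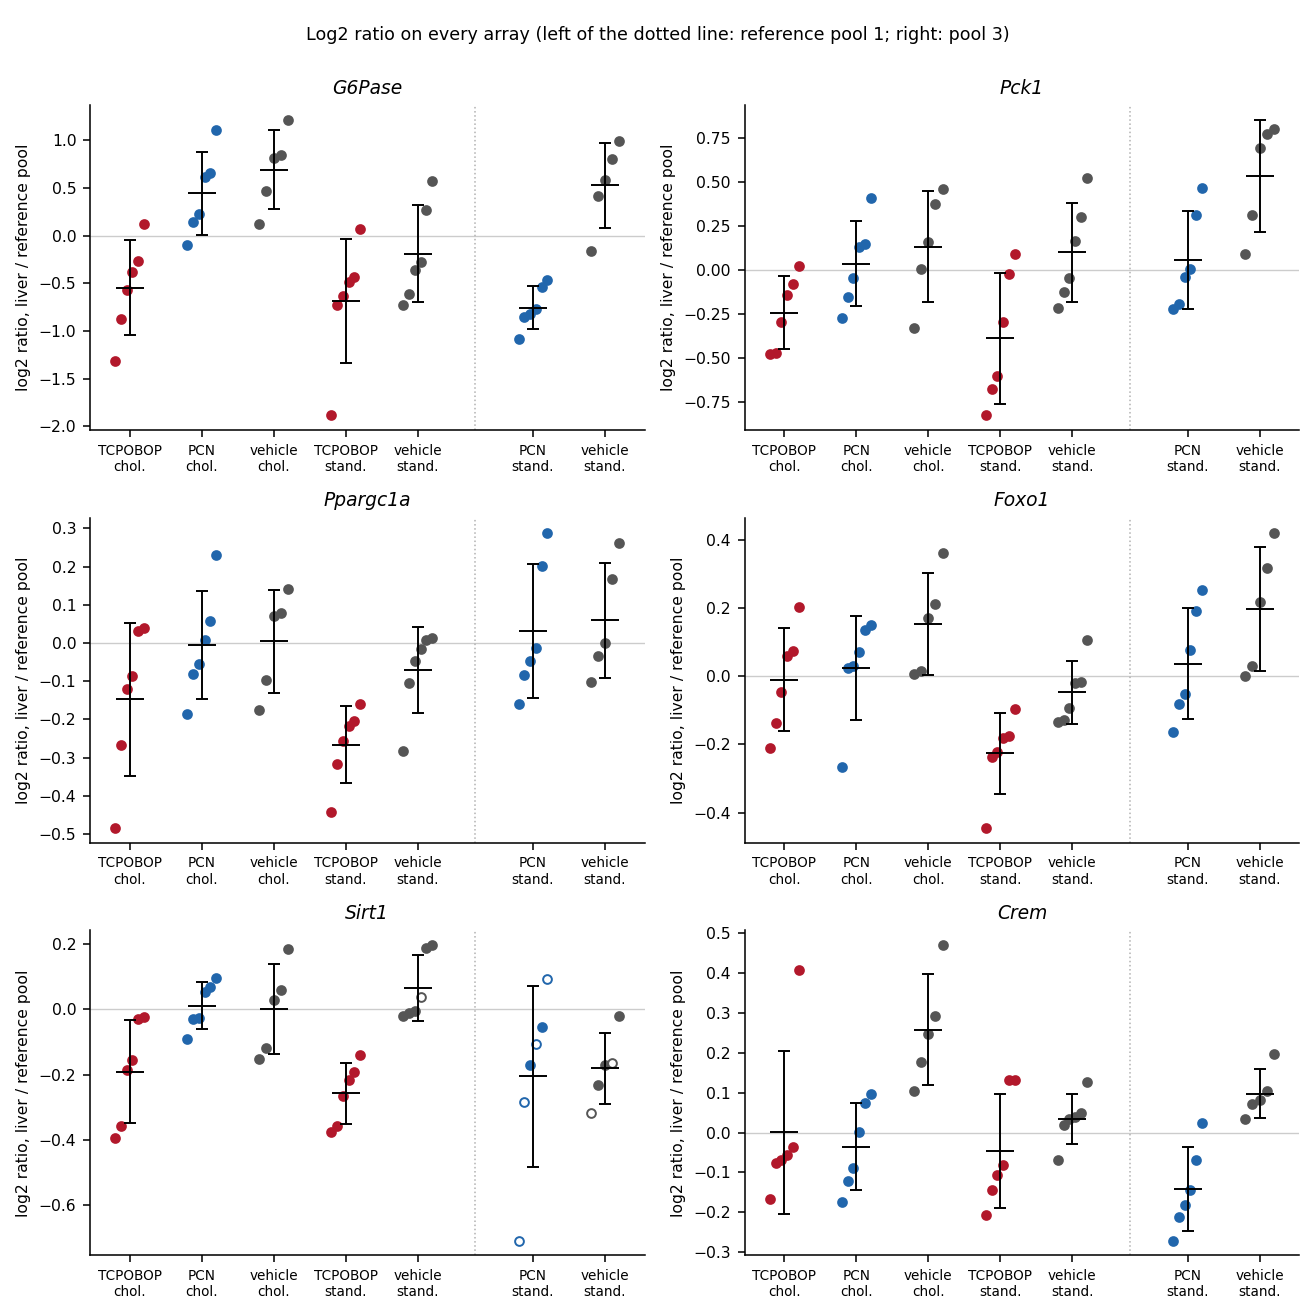
Log2 ratio of liver to reference RNA (vertical axes) of the 6 measurable members in each mouse, with groups along the horizontal axis and the first reference pool (pool 1) left of the other (pool 3); each panel has its own scale, dots are mice, open dots mark probes not above background, and bars show the mean and SD. G6Pase spans group means of 0.69 to -0.68 on the first pool, while Foxo1, Ppargc1a, Sirt1 and Crem stay within narrower ranges.

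On standard diet, the PCN set gave the widest separation of the enzyme. G6Pase after PCN had a lowest value of -1.09, a median of -0.79 and a highest of -0.47, against -0.16, 0.41, 0.58, 0.81 and 0.99 in the 5 vehicle mice, so that every PCN mouse lay below every vehicle mouse. The means were -0.76 ± 0.23 after PCN (SD, n = 6) and 0.53 ± 0.44 after vehicle (SD, n = 5). The log2 difference of -1.28 (SE 0.19, 95% interval -1.69 to -0.88, adjusted p = 0.00536 from limma) was 2.43-fold and ranked 1 of 277 by size. In this comparison 2.53% of all genes were called, 1.08% lower, and 2.17% had all PCN mice below all vehicle mice; G6Pase was the only member called. These arrays differ in the balance of their spike-in controls, and the difference was -1.42 among arrays of low balance (adjusted p = 0.0166 from limma) and -1.17 among those of high balance (adjusted p = 0.134 from limma); it kept its size but not its call under median centring (-1.31, adjusted p = 0.0981 from limma). The responses to PCN on the 2 diets were measured on different reference pools, and their difference was not tested.

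TCPOBOP on standard diet gave a wide spread of G6Pase rather than a call. The 6 TCPOBOP mice had a lowest value of -1.89, a median of -0.56 and a highest of 0.07, against a lowest of -0.73, a median of -0.32 and a highest of 0.57 in the 6 vehicle mice, and the groups overlapped. The means of -0.68 ± 0.65 after TCPOBOP and -0.19 ± 0.51 after vehicle (SD, n = 6 each) differed by -0.49 (SE 0.29, 95% interval -1.10 to 0.11, adjusted p = 0.191 from limma), with 5 of 6 TCPOBOP mice below the vehicle mean. The difference was -0.73 in the millimetre set (adjusted p = 0.140 from limma) and -0.0119 in the micrometre set (adjusted p = 0.997 from limma), and -0.25 without replicate 3 of TCPOBOP on standard diet (-0.64 to -0.25 with any 1 array left out). The response on the cholesterol diet minus that on standard diet was -0.75 (SE 0.42, 95% interval -1.62 to 0.13, adjusted p = 0.499 from limma), so a different response of G6Pase on the 2 diets was not shown. Of the 277 genes 0 (0%), and thus 0 members, passed the threshold of limma for that difference, and 35 genes (12.6%) but 0 members had an unadjusted p under 0.05.

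Cholesterol feeding in vehicle mice gave a G6Pase difference just short of the threshold. All 5 cholesterol-fed vehicle mice lay above the mean of the vehicle mice on standard diet, and the difference was 0.88 (SE 0.31, 95% interval 0.25 to 1.52, adjusted p = 0.0524 from limma). Of 19 other settings, 11 took this difference past their threshold, among them the authors' deposited ratios (1.00, adjusted p = 0.0268 from limma), and 8 did not. In the main fit 0 members were called by limma, beside 14.4% of all genes. At an unadjusted p under 0.05 with a false discovery rate under 0.16, limma passed 3 members (G6Pase, Foxo1 and Crem) and 78 of the 277 genes. The call turned with single arrays, since limma's adjusted p lay between 0.0223 and 0.0469 when any 1 of 7 arrays was left out, namely replicates 2 and 3 of TCPOBOP and replicate 1 of vehicle on the cholesterol diet, and replicates 3 and 6 of TCPOBOP and replicates 4 and 6 of vehicle on standard diet. With TCPOBOP on both diets, the cholesterol and the standard group differed by 0.14 (SE 0.29, 95% interval -0.47 to 0.74, adjusted p = 0.902 from limma). In that comparison 4.33% of all genes but 0 members were called by limma. At an unadjusted p under 0.05 with a false discovery rate under 0.16, limma passed 1 member, Foxo1, and 40 of the 277 genes.

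Pck1, the other enzyme, fell after TCPOBOP on standard diet. The 6 TCPOBOP mice had a lowest value of -0.82, a median of -0.45 and a highest of 0.09, against a lowest of -0.22, a median of 0.06 and a highest of 0.52 in the 6 vehicle mice. All 6 TCPOBOP mice lay below the vehicle mean, although the groups overlapped. The means of -0.39 ± 0.37 after TCPOBOP and 0.10 ± 0.28 after vehicle (SD, n = 6 each) differed by -0.49 (SE 0.17, 95% interval -0.83 to -0.14, adjusted p = 0.0209 from limma), or 1.40-fold. In this comparison 43.3% of all genes were called and 21.3% were lower, beside 2 of the 6 measurable members, both lower. With dim probes left out, 98 of 197 genes were called. The members' share was not tested against that of the array. The call was lost without replicate 2 (-0.43, adjusted p = 0.0526) or 3 (-0.40, adjusted p = 0.0607) of TCPOBOP or replicate 6 of vehicle (-0.40, adjusted p = 0.0596, all from limma), and also under median centring (-0.48, adjusted p = 0.104), loess on the spike-in controls (-0.44, adjusted p = 0.134) and the authors' deposited ratios (-0.475, adjusted p = 0.0726, all from limma). Within the scanner sets it was -0.63 in the millimetre set (adjusted p = 0.0143 from limma) and -0.21 in the micrometre set (adjusted p = 0.663 from limma).

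In cholesterol-fed mice Pck1 had the same direction after TCPOBOP but did not pass the test. The TCPOBOP mice had a lowest value of -0.48, a median of -0.22 and a highest of 0.02, against -0.33, 0.01, 0.16, 0.37 and 0.46 in the vehicle mice. All 6 TCPOBOP mice lay below the vehicle mean, and the vehicle mouse at -0.33 (replicate 1) fell among them. The difference was -0.37 (SE 0.17, 95% interval -0.74 to -0.01, adjusted p = 0.0949 from limma), and -0.49 (adjusted p = 0.0324 from limma) without that 1 mouse. The responses of Pck1 on the 2 diets differed by 0.11 (SE 0.24, 95% interval -0.39 to 0.61, adjusted p = 0.891 from limma).

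PCN gave a Pck1 difference of like size on standard diet and a small one on the cholesterol diet, neither past the threshold. On standard diet, Pck1 after PCN had a lowest value of -0.22, a median of -0.02 and a highest of 0.47, against 0.09, 0.31, 0.70, 0.77 and 0.80 in the vehicle mice, and 6 of 6 PCN mice lay below the vehicle mean. The difference was -0.48 (SE 0.16, 95% interval -0.84 to -0.12, unadjusted p = 0.0128, adjusted p = 0.187, both from limma). Cholesterol-fed PCN mice had a lowest value of -0.27, a median of 0.04 and a highest of 0.41, and differed from vehicle by -0.10 (SE 0.15, 95% interval -0.41 to 0.21, adjusted p = 0.825 from limma). TCPOBOP mice on that diet differed from PCN mice by -0.28 (SE 0.14, 95% interval -0.57 to 0.02, adjusted p = 0.155 from limma). The cholesterol diet moved Pck1 by 0.03 in vehicle mice (SE 0.17, 95% interval -0.33 to 0.39) and by 0.15 in TCPOBOP mice (SE 0.17, 95% interval -0.20 to 0.49), with adjusted p-values from limma of 0.942 and 0.709.

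**Figure D2:**
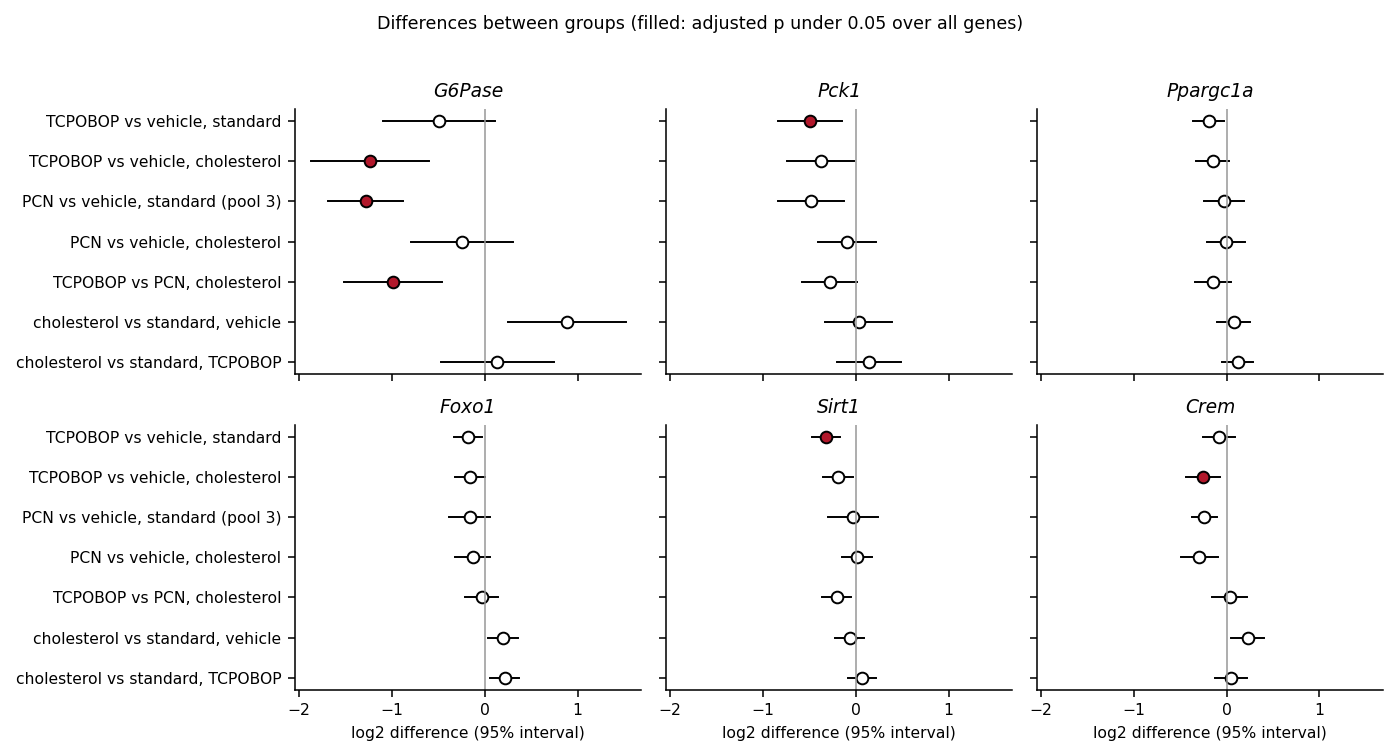
Log2 differences of the members (horizontal axes) in each of 7 comparisons between groups (rows), with 95% intervals from limma; filled points have an adjusted p under 0.05. G6Pase is the member with the widest range, down to -1.28 for PCN on standard diet, and the regulators lie between -0.32 and 0.23.

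Both enzymes were set against each other mouse by mouse, after each group's mean was removed, to ask whether they vary together among animals of 1 group. Over the 29 arrays of the first pool, the deviations of Pck1 and G6Pase had a Pearson's r of 0.645 (permutation p = 4.30e-04 within groups, adjusted p = 0.00645 over 15 pairs of members) and a Spearman's rho of 0.557 (permutation p = 0.00367, adjusted p = 0.0550). Without the 2 arrays farthest from the median of Pck1, r was 0.548. Within the millimetre set r was 0.751 (20 arrays) and within the micrometre set 0.191 (9 arrays), so on this pool the relation rests mostly on the larger set. The gap between the sets was not tested. The 11 arrays of the other pool were all written in micrometre and were looked at after the first result was known. They gave an r of 0.675 (permutation p = 0.0343) and a rho of 0.745 (permutation p = 0.0162), and an r of 0.735 without the 2 farthest arrays. Both genes were read from the same array in each mouse, so array effects are shared by both values.

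**Figure D3:**
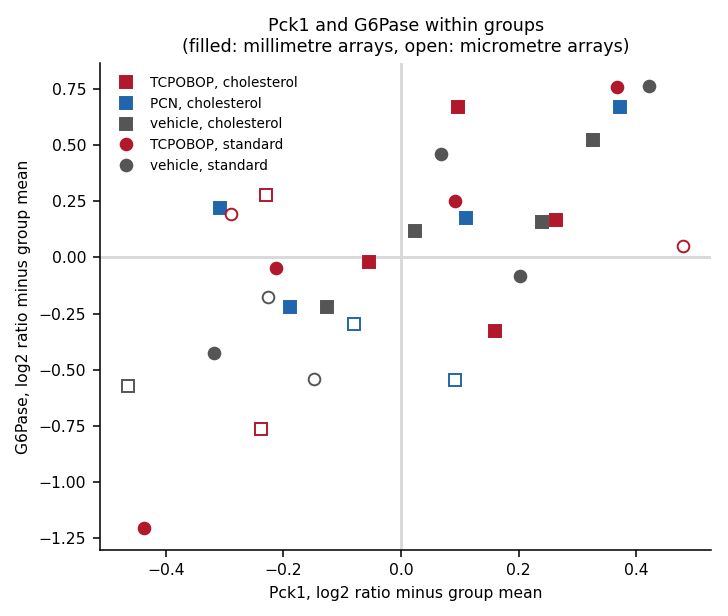
Deviation of Pck1 from its group mean (horizontal axis, log2) against that of G6Pase (vertical axis, log2) in each mouse of the first reference pool; filled points are arrays of the millimetre set and open points those of the micrometre set. The 20 filled points run upward together (r = 0.751), and the 9 open points do so far less (r = 0.191).

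No other pair of members passed the correction with the loess ratios, but the number of pairs that pass depends on the scaling, at 12 of 15 with the authors' deposited ratios and 2 with median centring. The next was Sirt1 with Crem, at an r of 0.509 and a rho of 0.456 (permutation p = 0.0141 and 0.0220, adjusted p = 0.106 and 0.165), followed by Ppargc1a with Sirt1 at an r of 0.459 and a rho of 0.354 (permutation p = 0.0343 and 0.0957, adjusted p = 0.172 and 0.359). G6Pase with Ppargc1a, its coactivator, had an r of 0.070 (permutation p = 0.731) and Pck1 with Ppargc1a 0.320 (permutation p = 0.0849).

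Among the regulators, Sirt1 was lower after TCPOBOP on standard diet. It had a lowest value of -0.38, a median of -0.24 and a highest of -0.14 after TCPOBOP, against a lowest of -0.02, a median of 0.02 and a highest of 0.20 after vehicle, so that all 6 TCPOBOP mice lay below all 6 vehicle mice. Of all genes, 11.2% separated downward in this way. The means of -0.26 ± 0.09 after TCPOBOP and 0.06 ± 0.10 after vehicle (SD, n = 6 each) differed by -0.32 (SE 0.07, 95% interval -0.47 to -0.17, adjusted p = 0.00113 from limma), or 1.25-fold. The Sirt1 probe was dim, and 1 of the 6 vehicle arrays did not have it above background. The difference was -0.36 within the millimetre set (adjusted p = 0.0111 from limma) and -0.24 within the micrometre set (adjusted p = 0.218 from limma).

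Sirt1 gave differences close to the threshold on the cholesterol diet. The TCPOBOP mice had a lowest value of -0.39, a median of -0.17 and a highest of -0.02, against -0.15, -0.12, 0.03, 0.06 and 0.18 in vehicle mice, and the 2 lowest vehicle mice fell among them. The difference was -0.19 from vehicle (SE 0.08, adjusted p = 0.0518 from limma) and -0.20 from PCN (SE 0.07, adjusted p = 0.0504 from limma), each with 6 of 6 TCPOBOP mice below the other group's mean. Leaving out 1 of 4 arrays brought the first under the threshold (replicates 1 and 5 of vehicle, 3 and 4 of TCPOBOP, adjusted p = 0.0255 to 0.0378 from limma). Leaving out 1 of 5 brought the second under it (replicates 4 and 5 of vehicle, 3 and 4 of TCPOBOP, 1 of PCN, adjusted p = 0.0244 to 0.0495 from limma). PCN mice differed from vehicle mice by 0.01 on the cholesterol diet (95% interval -0.15 to 0.17) and by -0.02 on standard diet (95% interval -0.29 to 0.25), but in the standard diet set only 2 of 6 PCN arrays and 3 of 5 vehicle arrays had the probe above background.

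Foxo1 and Ppargc1a leaned the same way as Sirt1 after TCPOBOP on standard diet and stayed short of the threshold. For Foxo1 the TCPOBOP mice had a lowest value of -0.45, a median of -0.20 and a highest of -0.10, against a lowest of -0.13, a median of -0.06 and a highest of 0.11 in vehicle mice, a difference of -0.18 (SE 0.07, 95% interval -0.33 to -0.02, adjusted p = 0.0574 from limma). For Ppargc1a they had a lowest value of -0.44, a median of -0.24 and a highest of -0.16, against a lowest of -0.28, a median of -0.03 and a highest of 0.01, a difference of -0.19 (SE 0.08, 95% interval -0.36 to -0.03, adjusted p = 0.0587 from limma). All 6 TCPOBOP mice lay below the vehicle mean for both genes. The groups overlapped by their edges for Foxo1, and for Ppargc1a the vehicle mouse at -0.28 (replicate 2) fell among the TCPOBOP mice. Foxo1 passed the threshold when 1 of 4 arrays was left out (replicate 6 of vehicle or 5 or 6 of TCPOBOP on the cholesterol diet, or 3 of TCPOBOP on standard diet, adjusted p = 0.0389 to 0.0456 from limma). Ppargc1a passed it without 1 of 3 arrays (replicate 2 of vehicle or 1 of TCPOBOP on standard diet, or 5 of TCPOBOP on the cholesterol diet, adjusted p = 0.0249 to 0.0491 from limma).

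Ppargc1a has a second probe, spotted as Ppargc1, which gave -0.19 for the same comparison (SE 0.08, adjusted p = 0.0693 from limma over 284 probes). Across the 29 arrays of the first pool the log2 ratios of both Ppargc1a probes correlated at an r of 0.852. For TCPOBOP against vehicle on the cholesterol diet, Ppargc1a gave -0.15 with the brighter probe (SE 0.09) and -0.03 with the other (SE 0.09), neither past the threshold, and the gap between probes was not tested.

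Foxo1 had a higher mean on the cholesterol than on standard diet in both treatments, without a call. Vehicle mice on the cholesterol diet had Foxo1 at 0.01, 0.01, 0.17, 0.21 and 0.36, all above the mean of -0.05 of the 6 vehicle mice on standard diet, and the difference was 0.20 (SE 0.08, adjusted p = 0.0868 from limma). Among TCPOBOP mice the diet difference of Foxo1 was 0.22 (SE 0.07, adjusted p = 0.0924 from limma), with 6 of 6 cholesterol-fed mice above the standard mean, and 0.26 (adjusted p = 0.0354 from limma) without replicate 5 of TCPOBOP on the cholesterol diet. TCPOBOP against vehicle on the cholesterol diet gave -0.16 (SE 0.08, adjusted p = 0.106 from limma), and -0.21 (adjusted p = 0.0436 from limma) without replicate 6 of TCPOBOP.

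Crem fell after TCPOBOP on the cholesterol diet. The TCPOBOP mice had a lowest value of -0.17, a median of -0.06 and a highest of 0.41, against 0.10, 0.18, 0.25, 0.29 and 0.47 in the 5 vehicle mice. The highest TCPOBOP mouse (replicate 3) stood far from the other 5 and among the vehicle mice. The difference of TCPOBOP from vehicle was -0.26 (SE 0.09, 95% interval -0.44 to -0.08, adjusted p = 0.0259 from limma), or 1.20-fold, with 5 of 6 TCPOBOP mice below the vehicle mean. This call was lost without replicate 2 (-0.22, adjusted p = 0.0613) or 4 (-0.24, adjusted p = 0.0513) of TCPOBOP, or replicate 4 (-0.21, adjusted p = 0.0786) or 6 (-0.25, adjusted p = 0.0506, all from limma) of vehicle, and when the fit held the TCPOBOP and vehicle arrays of that diet alone (adjusted p = 0.0795 from limma). The Crem difference was -0.22 within the millimetre set (adjusted p = 0.154 from limma) and -0.30 within the micrometre set, which held 1 vehicle array of that diet.

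PCN mice also had less Crem than vehicle mice on both diets in every animal, without passing the correction. In cholesterol-fed mice the PCN group had a lowest value of -0.17, a median of -0.04 and a highest of 0.10, below all 5 vehicle mice, as 0.722% of all genes were. The difference was -0.29 (SE 0.09, 95% interval -0.49 to -0.10, unadjusted p = 0.00610, adjusted p = 0.188, both from limma), and the adjusted p was 0.0327 without replicate 3 of the TCPOBOP group that shares the fit. On standard diet the PCN mice had a lowest value of -0.27, a median of -0.16 and a highest of 0.02, against 0.03, 0.07, 0.08, 0.10 and 0.20 in vehicle mice. The groups did not overlap, and 2.17% of all genes separated downward in this way there. The difference was -0.24 (SE 0.06, 95% interval -0.38 to -0.10, adjusted p = 0.0801 from limma), and -0.27 (adjusted p = 0.0412 from limma) without replicate 4 of PCN. The diet itself went with a Crem difference of 0.23 in vehicle mice (SE 0.09, adjusted p = 0.0868 from limma), and with an adjusted p of 0.0223 without replicate 3 of TCPOBOP on the cholesterol diet. The forms of Crem cannot be told apart with this probe, and a second Crem probe was above background on no array.

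Creb1 was above background on 0 of 40 arrays, so that no fold is given for it in any comparison. Of the differences of Foxo1, Ppargc1a, Sirt1 and Crem, the 20 with an unadjusted p of 0.05 or more lay between -0.18 and 0.13. The lowest unadjusted p among them was 0.0902 from limma. Those of Pck1 and G6Pase, some of them larger, are given above.

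Ordered by their group means on the first pool, both enzymes had cholesterol-fed vehicle mice at the top and TCPOBOP mice on standard diet at the bottom. For G6Pase the order was vehicle (0.69) and PCN (0.44) on the cholesterol diet, vehicle on standard diet (-0.19), TCPOBOP on the cholesterol diet (-0.55) and TCPOBOP on standard diet (-0.68). For Pck1 it was vehicle on the cholesterol diet (0.13), vehicle on standard diet (0.10), PCN on the cholesterol diet (0.04), TCPOBOP on the cholesterol diet (-0.24) and TCPOBOP on standard diet (-0.39). Foxo1, Ppargc1a and Crem had the same groups at both ends, while Sirt1 had vehicle on standard diet at the top. In a fit of all 5 groups, Sirt1 between TCPOBOP and vehicle on the cholesterol diet was the only neighbouring pair of any member that passed the threshold, vehicle being higher by 0.19 (SE 0.07, adjusted p = 0.0333 from limma). In the main fit of 4 groups the same difference had an adjusted p of 0.0518 from limma and was not called. The neighbouring pairs were set by the order of these same means. The other neighbouring pairs did not pass the threshold, although 3 had an unadjusted p under 0.05. These were G6Pase in PCN mice on the cholesterol diet over vehicle mice on standard diet (0.63, SE 0.28), Foxo1 in vehicle over TCPOBOP mice on standard diet (0.18, SE 0.08) and Crem in vehicle mice on the cholesterol over the standard diet (0.23, SE 0.08), with adjusted p-values of 0.239, 0.0603 and 0.0630 from limma.

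For the members called on the first pool, the genes with the nearest profile over the 5 group means were found among 194 genes above background. For G6Pase these were Ppara, a fatty acid sensor, C9, a complement protein, and Igf1, a growth factor, with root mean square differences of 0.199, 0.206 and 0.220 log2 units where the median candidate had 0.552. For Pck1 they were Serping1, Hpx and Acat2 at 0.0453, 0.0531 and 0.0536 (median candidate 0.244). For Sirt1 they were Sp1, Gfpt2 and Arntl at 0.0290, 0.0308 and 0.0456 (median candidate 0.181), and for Crem they were Scp2, Rxra and Nr2f2 at 0.0461, 0.0501 and 0.0567 (median candidate 0.188). The profile of G6Pase was thus matched less closely than those of the other members, in absolute terms, and its own range over the groups was 1.37 against 0.30 to 0.52 for the other 3.

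**Figure D4:**
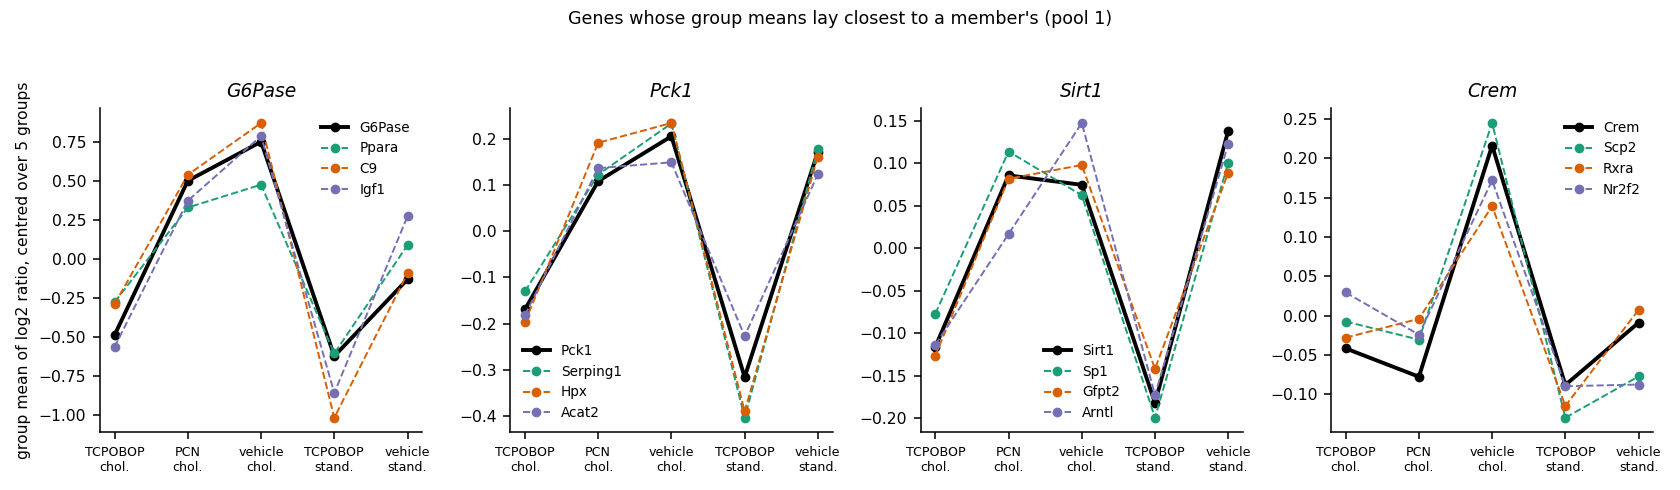
Group means centred over the 5 groups of the first reference pool (vertical axes, log2, each panel with its own scale) for each called member (solid line) and its 3 nearest genes (dashed lines), with groups along the horizontal axis. G6Pase and its nearest genes Ppara, C9 and Igf1 share low values in both TCPOBOP groups, at a distance of 0.199 to 0.220.

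The rest of the pathway gave a setting for these values. Of 8 listed enzymes of glucose output, Pck1 and G6Pase were the 2 on the array. Of 12 listed regulators of the cAMP and Foxo1 arm 7 were on it, the 5 members and 2 more, and beside Sirt1 and Crem only Ppargc1b, a relative of Ppargc1a, was called in any comparison, at 0.27 for the cholesterol against the standard diet in vehicle mice (SE 0.08, adjusted p = 0.0217 from limma), where it was above background on 4 of 5 and 1 of 6 arrays.

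Of 10 genes for glycolysis, glycogen and glucose transport, 3 rose and 2 fell after TCPOBOP on standard diet, beside 43.3% of all genes called. Ppp1r3c, which targets protein phosphatase 1 to glycogen, fell by 3.34 on the log2 scale (SE 0.18), while Mlxipl, the carbohydrate-responsive transcription factor ChREBP, rose by 0.81 (SE 0.10) and Pdhb, a subunit of pyruvate dehydrogenase, by 0.53 (SE 0.07). The median log2 difference of the list was 0.05, against -0.01 for all genes. On the cholesterol diet 3 rose and 2 fell after TCPOBOP, beside 37.5% of all genes called, among them Ppp1r3c at -2.51, Pdhb at 0.40 and Pklr, liver pyruvate kinase, at -0.33, with a median of -0.07 against -0.01 for all genes. Against PCN on that diet, 3 were higher and 2 lower, beside 27.4% of all genes called. Ppp1r3c was also the only gene of these lists beside G6Pase called for PCN on standard diet, at -0.82 (SE 0.17, adjusted p = 0.0284 from limma), and the cholesterol diet raised only Mlxipl of this list in vehicle mice, by 0.85 (SE 0.11).

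Of 12 liver transcription factors acting on glucose output genes, 2 rose and 4 fell after TCPOBOP on standard diet, near the 43.3% called and 21.3% lower over all genes, with a median of -0.10. Cebpa fell by 1.21 (SE 0.12), Nr1i3, which encodes CAR itself, by 0.71 (SE 0.14) and Ppara by 0.69 (SE 0.13); 1 of the 2 that rose, Foxa1, was not above background on any array of either group. After TCPOBOP on the cholesterol diet 2 rose and 2 fell, beside 37.5% of all genes called, with Cebpa at -0.97, Ppara at -0.75 and Foxa2 at 0.34, and a median of -0.02. Against PCN, 2 were higher and 3 lower, beside 27.4% of all genes called. Of this list, with the cholesterol diet in vehicle mice Nr1i3 fell by 0.60 (SE 0.15) and Stat3 fell by 0.34 (SE 0.11), and Foxa2 rose with it in TCPOBOP mice by 0.57 (SE 0.10).

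Of 8 genes of insulin and adiponectin signalling, 1 rose and 2 fell after TCPOBOP on standard diet, beside 43.3% of all genes called, with a median of -0.03. Igf1 fell by 1.13 (SE 0.14) and the adiponectin receptor Adipor2 by 0.91 (SE 0.13), while Adipor1 rose by 0.16 (SE 0.05). On the cholesterol diet 1 rose and 3 fell, beside 37.5% of all genes called, with Igf1 at -1.35, Adipor2 at -0.77 and Adipor1 at 0.19, and the third that fell, Irs2, was above background on 0 arrays of the 2 groups. In cholesterol-fed against standard-fed vehicle mice 2 rose, Igf1 by 0.51 and the same dim Irs2. For PCN on the cholesterol diet no gene of any of these 5 lists was called.

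Of the other markers, Adipoq, the adipocyte hormone adiponectin, fell by 0.12 after TCPOBOP on standard diet (adjusted p = 0.0394 from limma), the comparison in which Pck1 and Sirt1 fell. Of the 3 adipocyte markers, Adipoq was above background on 32 of 40 arrays, Retn on 5 and Lep on 0. Of the 8 hepatocyte markers, 3 fell in the same comparison, beside 21.3% of all genes. After TCPOBOP on the cholesterol diet, where G6Pase and Crem fell, 2 of the 8 did, Apoe by 0.42 (adjusted p = 0.00615) and Alb by 0.40 (adjusted p = 0.0233, both from limma), beside 14.4% of all genes. The part of these markers in the members' results was not tested.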

How the data were processed

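Liver RNA of single mice was hybridized to 2-colour Steroltalk v2 cDNA arrays. The scanner files hold raw spot intensities of both channels and of the local background, as deposited. A second table holds log2 ratios that the authors had already normalized and reduced to 1 value per probe, with scale and centring not given in the sources used here. Their array medians ran from -0.38 to 1.32, and they had an r of 0.917 to 0.996 with the scanner ratios on the first pool and 0.689 to 0.978 on the other. Values in the text were computed from the intensities, with that table as an alternative.

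The normexp method (offset 50) corrected the background, loess (span 0.3) over mouse spots normalized each array, and the 3 to 6 spots per probe were averaged. The brightest probe of a gene was used. Probes were named by symbol (220), synonym (50) or the name in the file (14), and promoters came from the RefSeq table (GRCm38.p6). Comparisons used limma 3.58.1 (R 4.3.3), in a fit of 4 groups for TCPOBOP and diet, of the 3 cholesterol-fed groups for PCN and TCPOBOP against PCN, and of 2 groups on the second pool, with Benjamini-Hochberg adjustment over all genes. Scripts were tested on simulated data. Covariation used 100000 permutations within groups. P-values measure the spread between mice, and the number of arrays limits the precision.

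All members are named in every comparison, with up to 3 called examples per pathway list by size and the 3 nearest profiles per called member. Members, lists and tests were chosen with earlier results of these data known. The alternatives, including the t-test of the methods and their threshold (p under 0.05, false discovery rate under 0.16), are given in the closing section.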

Additional observations from a re-analysis of the deposited data

Results flagged for a closer look

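In 49 sets of values, each a member probe in 1 group, 2 held a mouse far from the rest, where chance flags about 1 in 20 groups. Foxo1 in PCN mice on the cholesterol diet had a lowest log2 ratio of -0.27 (replicate 3), while the other 5 mice ran from 0.02 to 0.15. Crem in TCPOBOP mice on the cholesterol diet had a highest log2 ratio of 0.41 (replicate 3), while the other 5 ran from -0.17 to -0.04.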

How the results depend on the processing

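Of 517 values of the 28 member differences under other settings, 444 kept their direction and their side of the threshold, 15 fell short of it, 52 newly passed it and 6 turned sign, and of 572 values with 1 array left out these counts were 530, 7, 29 and 6; where a call changed, the cause was not tested.
The number of members called moved by over 1.5 times as follows. For TCPOBOP on standard diet (2), there were 4 with plain background subtraction, with the 2 compared groups alone, by the methods' t-test and by limma at the methods' threshold, 1 with median centring, loess on the spikes and the deposited ratios with or without vehicle array 2, and 0 within micrometre arrays; array weights, the replicate block and the t-test after Benjamini-Hochberg gave 3. For the diet in vehicle mice (0), there were 1 with plain subtraction, the median over spots, dim probes left out, all 5 groups and the methods' t-test after Benjamini-Hochberg, 2 with the spikes, the deposited ratios with or without array 2, the compared groups alone and array weights, and 3 at the methods' threshold by their t-test and by limma. For TCPOBOP on the cholesterol diet (2), there were 1 with the compared groups alone, within millimetre arrays and by the t-test after adjustment, and 5 by limma at the methods' threshold. No background correction, plain subtraction, all 5 groups, the replicate block and the t-test at the methods' threshold gave 3. Within micrometre arrays vehicle on that diet had 1 array, and no count is given. TCPOBOP on that diet gave 104 calls among 277 genes in the main fit, 84 with the compared groups alone and 86 within millimetre arrays. The t-test after adjustment gave 80, and at the methods' threshold limma gave 127 and the t-test 117. The diet in TCPOBOP mice (0) gave 1 by limma at that threshold, and PCN on the cholesterol diet (0) gave 1 by the t-test at it. TCPOBOP against PCN (1) gave 2 with plain subtraction, the median over spots, all 5 groups, array weights, the replicate block and both tests at the methods' threshold, and 0 within micrometre arrays. PCN on standard diet (1) gave 0 with median centring and among arrays of high spike balance, chosen after seeing the data, and 2 by both tests at the methods' threshold. Over all 277 genes, the diet in vehicle mice gave 40 calls in the main fit. At the methods' threshold it gave 79 by the t-test and 78 by limma. The diet in TCPOBOP mice gave 12 in the main fit and 40 by limma at that threshold. PCN on the cholesterol diet gave 3, and 6 by the t-test at it. TCPOBOP against PCN gave 76, and at it 111 by the t-test and 107 by limma. PCN on standard diet gave 7, and at it 10 and 16.
With 1 array left out the numbers of members called were 1 to 4, 0 to 2, 1 to 4, 0 to 0 (the difference of responses), 0 to 1, 0 to 1, 1 to 2 and 1 to 2, in the order of the report's 8 comparisons: TCPOBOP on standard diet, diet in vehicle mice, TCPOBOP on cholesterol diet, difference between diets, diet in TCPOBOP mice, PCN on cholesterol diet, TCPOBOP against PCN, and PCN on standard diet.
Small differences turned sign. The diet difference of Pck1 in vehicle mice was -0.0166 with the replicate block, -0.24 within micrometre arrays (1 array of cholesterol-fed vehicle mice) and -0.0480 to 0.15 with 1 array left out. In TCPOBOP mice that of G6Pase was -0.0339 with array weights, -0.23 within micrometre arrays and -0.10 to 0.29 with 1 array left out, and that of Pck1 was -0.18 within micrometre arrays. PCN on the cholesterol diet gave Pck1 at 0.37 within micrometre arrays (1 vehicle array), and the difference of the TCPOBOP responses of Pck1 ran from -0.0033 to 0.21 with 1 array left out. The correlated pairs of members (1) were 12 with the deposited ratios, 2 with median centring and 0 within micrometre arrays. Replicate numbers did not pair the mice (mean r of -0.015 over 56 pairs of the same number); the block brought Ppargc1a for TCPOBOP on standard diet (adjusted p = 0.0453) and Sirt1 on the cholesterol diet (adjusted p = 0.0178, both from limma) under the threshold.
Over all genes, the deposited ratios gave 74, 64 and 48 calls for TCPOBOP on standard diet, on the cholesterol diet and against PCN, where the scanner ratios gave 120, 104 and 76, with fewer genes tested (197, 195 and 190). Median centring gave 3 for the diet in TCPOBOP mice (12) and 0 for PCN on standard diet (7). The median log2 difference of all genes was 0.13 for the difference of TCPOBOP responses, 0.15 for the diet in TCPOBOP mice and -0.18 for PCN on standard diet with the deposited ratios, and -0.13 for PCN on standard diet with loess on the spikes.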
